A study of Rattus norvegicus with 3 samples.

Results

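The annexins are a family of proteins that bind membranes holding negatively charged phospholipids when calcium is present, and 9 rat annexin genes are described here. They were taken as the gene probes whose name on the array, with provisional endings removed, was Anxa1 to Anxa8 or Anxa11 or an older alias of these, which gave 16 of 41012 probes and 9 of 35508 gene names. Of these 9 genes, 8 were measured well enough to be tested, among 21775 genes tested in all. The cells studied were untreated iPS F65, a rat line of induced pluripotent stem cells that was grown on a feeder layer of irradiated mouse embryonic fibroblasts. They were set against mix1, in which adult rat bone marrow cells had been combined with primary fibroblasts from the ear. All of these cells were grown in media with fetal bovine serum. RNA from 3 samples of iPS F65, in Cy3, was read beside that of mix1, in Cy5, on 3 Agilent arrays whose annexin probes are 60 bases long. The labels name 1 iPS line and do not say how F65 was made or how mix1 was proportioned, so nothing here speaks for other lines or for either adult cell type alone.

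Each annexin has a conserved core of repeated domains that carries the calcium-dependent membrane binding, and an N-terminal tail that differs between members. The tails of annexins A1 and A2 bind S100 proteins, and annexin A2 with S100A10 forms a complex at the inner face of the plasma membrane. In fibroblasts and macrophages annexins are known for roles in membrane traffic, membrane repair, plasminogen activation on the cell surface and the damping of inflammation.

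Values are processed signals, which the scanner software had background-subtracted and dye-normalized, and log2 ratios of iPS F65 over mix1. The share of gene spots well above background was 57.1% to 61.2% for iPS F65 and 58.3% to 62.1% for mix1. A gene was called lower or higher at an adjusted p under 0.05 (limma, Benjamini-Hochberg over all genes tested) and a change of at least 2-fold. The median SD of the log2 ratio between arrays was 0.04, close to the 0.05 between repeated spots of 1 probe on the same array. Whether the 3 samples are separate cultures is not stated. The p-values therefore cover the spread seen between them, possibly a technical one, and nothing of the spread of mix1. No array had the dyes swapped, so a dye effect and a difference between the cells cannot be told apart. In RNA of whole cultures, fewer cells of a type and less RNA per cell cannot be told apart either. Most pluripotency markers tested were higher in iPS F65. All fibroblast markers and most macrophage and leukocyte markers tested were lower there.

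Of the 8 annexins tested, 6 were lower in iPS F65, none was higher, and Anxa3 and Anxa7 passed in neither direction. Over all genes tested, 24.5% were lower and 30.9% higher, 55.4% in all. The median log2 ratio of the 8 annexins was -2.79, against 0.25 for all genes tested. Their order ran from Anxa1, at 258-fold lower, through Anxa2, Anxa6, Anxa5, Anxa4 and Anxa11 to Anxa3 and Anxa7, which were 1.15-fold and 1.07-fold lower. The ranges over the 3 arrays did not overlap between any neighbours in this order, and the narrowest step was from Anxa3 to Anxa7, a log2 difference of 0.10 ± 0.05 (SD, n = 3). That step is smaller than the 0.32 by which the 3 probes of Anxa3 differed among themselves, so the order of these last genes depends on the probe. The order of Anxa5 and Anxa4 does too, since the second Anxa5 probe, at -2.14, lay nearer to 0 than the brighter Anxa4 probe, at -2.49.

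**Figure D1:**
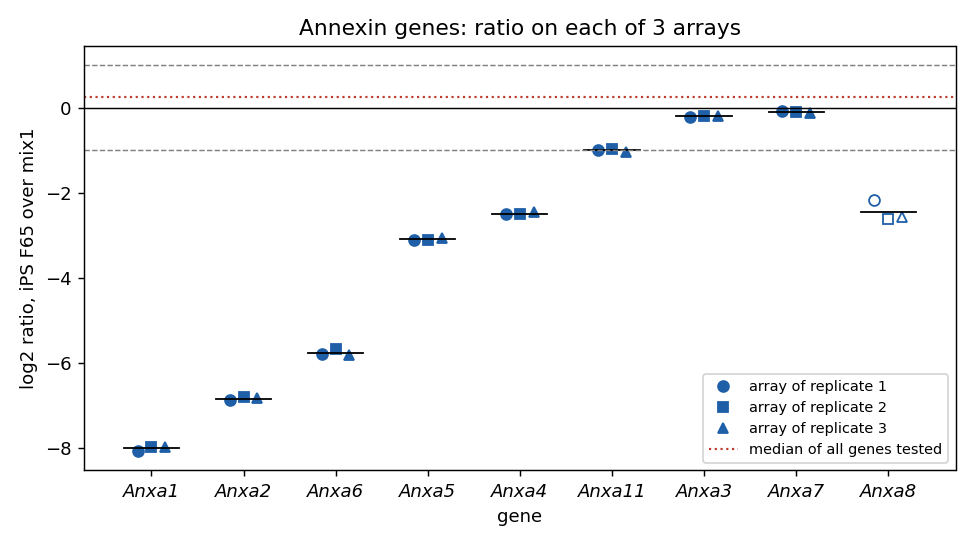
The plot shows the log2 ratio of iPS F65 over mix1 (vertical axis) for each annexin gene on each of 3 arrays (symbols), with the mean as a short bar, the 2-fold limits dashed and the median of all genes tested dotted. The ratios fall in steps from Anxa7 and Anxa3, near 0, to Anxa1, at -8.01, and the open symbols of Anxa8 stand for a gene not well above background in iPS F65.

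Anxa1 encodes annexin A1, also called lipocortin 1, which is induced by glucocorticoids and limits inflammation through formyl peptide receptors. Its brighter probe had processed signals of 953, 1301 and 1316 in iPS F65, against 256663, 327666 and 332410 in mix1. The groups were far apart on every array, and the log2 ratio was -8.01 ± 0.06 (SD, n = 3; limma, adjusted p = 5.38e-06). The other probe of Anxa1 gave signals of 1367, 1733 and 1752 in iPS F65 and 190431, 222750 and 221964 in mix1, a log2 ratio of -7.04 ± 0.07. This is 131-fold lower in iPS F65, so the probes differed from each other by 1.96-fold.

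A further pair of probes on the array is described in the files as lipocortin I but does not carry the gene's name, so they were not counted among the members. They lie on chromosome 1 at positions 223646404 to 223646463 and 223658267 to 223658326, near the named Anxa1 probes. The first had signals of 85.5, 107 and 95 in iPS F65 and 52526, 60857 and 58383 in mix1, with a log2 ratio of -9.23 ± 0.06. The second had 53.6, 66.6 and 67.6 in iPS F65, where it was well above background on 2 of 3 arrays, and 6468, 7451 and 7360 in mix1, with a log2 ratio of -6.83 ± 0.08. These 2 probes were looked up after the values of Anxa1 had been seen, and both differed in the same direction as the named ones.

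Anxa2 encodes annexin A2, which binds S100A10 and serves at the cell surface as a docking site for plasminogen and its activator. The signals of its only probe were 1708, 2166 and 2264 in iPS F65, against 200946, 243099 and 257869 in mix1. No array came near overlap, and Anxa2 was 115-fold lower, with a log2 ratio of -6.84 ± 0.03 (limma, adjusted p = 5.38e-06). The accessions that the array files give for this probe include the record of an annexin II pseudogene, so signal from the gene and from that pseudogene cannot be told apart there. The probe named for the pseudogene, on chromosome 15 at positions 45008011 to 45008070, had signals of 564, 646 and 644 in iPS F65. In mix1 it had 23914, 27174 and 26948, a log2 ratio of -5.40 ± 0.01. Whether it reads the pseudogene alone or RNA of Anxa2 too was not tested. An unnamed probe on chromosome 8, at positions 73952167 to 73952226, overlaps the start of the Anxa2 probe, which is given as 73952205 to 73952786. It shares a run of 22 bases with that probe. Its signals were 22.7, 28.9 and 29.7 in iPS F65, where it stayed near background on all arrays, and 1604, 1790 and 1849 in mix1.

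The probes that carry these values are shown because a family with a conserved core can share sequence between its members. Capitals mark the letters GGNGANTA, where N is any base, searched on both strands and chosen after the probes had been read. They occur in 4 of the 16 annexin probes, those below of Anxa1, Anxa2, Anxa4 and Anxa7, and in 1.57% of all 41012 gene probes. Positions are on rn3, the build named in the headers of the array files, and each sequence runs 5′ to 3′. The brighter probe of Anxa1, which lacks these letters, is given first.
Anxa1, chr1:223642493-223642552, minus strand: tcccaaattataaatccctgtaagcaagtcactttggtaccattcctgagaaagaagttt
Anxa1, chr1:223642741-223642800, minus strand: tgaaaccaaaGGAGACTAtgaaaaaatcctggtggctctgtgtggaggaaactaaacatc
Anxa2, chr8:73952205-73952786, plus strand: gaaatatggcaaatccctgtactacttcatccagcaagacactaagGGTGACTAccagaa
Anxa4, chr4:121135003-121135062, minus strand: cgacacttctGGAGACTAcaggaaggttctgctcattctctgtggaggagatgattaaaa
Anxa7, chr15:4075590-4075649, plus strand: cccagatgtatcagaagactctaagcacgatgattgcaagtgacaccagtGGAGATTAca

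The stretch given for the Anxa2 probe covers 582 positions of the genome for 60 bases of probe, so this probe is not 1 continuous genomic run. The longest run that probes of 2 different annexins share is 13 bases, between Anxa5 and the dimmer probe of Anxa7, shown here with that run in capitals.
Anxa5, chr2:122895146-122895205, minus strand: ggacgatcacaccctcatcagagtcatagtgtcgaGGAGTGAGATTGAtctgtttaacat
Anxa7, chr15:4073581-4075589, plus strand: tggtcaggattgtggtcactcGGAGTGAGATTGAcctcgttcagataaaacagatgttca

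These probes differed in ratio, with Anxa5 8.54-fold lower and this probe of Anxa7 1.17-fold lower. Besides the overlapping probe that shares 22 bases with that of Anxa2, 1 other probe of the array shares a run of at least 20 bases with an annexin probe. That other probe shares a run of 20 with the dimmer probe of Anxa7. Its log2 ratio was 0.36 ± 0.01, against -0.23 ± 0.03 for that probe of Anxa7.

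Anxa6 encodes annexin A6, the member with a doubled core, which is known for roles in endocytosis and cholesterol traffic. The signals of its brighter probe were 515, 670 and 596 in iPS F65 and 28622, 34103 and 33400 in mix1. The channels were well separated on all arrays, and Anxa6 was 54.1-fold lower, with a log2 ratio of -5.76 ± 0.08 (limma, adjusted p = 5.92e-06). Its dimmer probe was not well above background in iPS F65, at 46.7, 59.2 and 63.4, and gave 3039, 3540 and 3550 in mix1. That probe passed the filter through mix1 alone. Set against the dimmest signals still above background, it was at least 51.1-fold lower. Bounds of this kind rest on levels scaled per channel and are open to dye bias.

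Anxa5 encodes annexin A5, whose binding to exposed phosphatidylserine is used to stain dying cells, and Anxa4 encodes annexin A4, found on intracellular and plasma membranes of many cells, epithelia among them. Anxa5 had signals of 7977, 9437 and 9665 in iPS F65, against 68707, 81338 and 80979 in mix1. Its log2 ratio was -3.09 ± 0.02, which is 8.54-fold lower (limma, adjusted p = 5.64e-06). The second Anxa5 probe read a smaller difference, 4.40-fold, with 6943, 8077 and 7910 in iPS F65 and 30249, 36053 and 34546 in mix1. Anxa4 had 3135, 3678 and 3529 in iPS F65 and 17897, 20946 and 19405 in mix1. It was 5.63-fold lower, with a log2 ratio of -2.49 ± 0.03 (limma, adjusted p = 6.54e-06), and its second probe was 4.28-fold lower. Both genes kept strong signals in iPS F65 while being lower there on every array and with every probe.

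**Figure D2:**
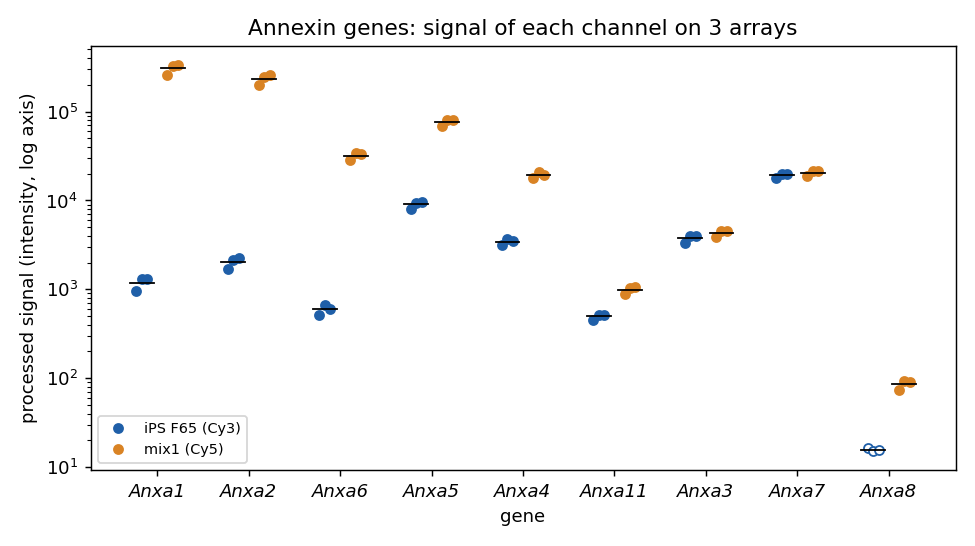
Processed signal on a log axis for the probe that stands for each annexin gene, with iPS F65 (Cy3) left of mix1 (Cy5), 1 point per array and the mean as a bar. The channels lie far apart for Anxa1, Anxa2 and Anxa6 and almost touch for Anxa3 and Anxa7, and the open points of Anxa8 were not well above background. Heights are to be compared within a gene, not between genes, since probes differ in brightness.

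Annexins A7 and A11 share a long N-terminal tail, and both are known to bind small calcium-binding partners, sorcin for A7 and the protein ALG-2, encoded by Pdcd6, for A11. Anxa11 had signals of 447, 521 and 519 in iPS F65, against 888, 1031 and 1060 in mix1, a log2 ratio of -1.0 ± 0.02 (limma, adjusted p = 1.94e-05). This is 2.0-fold and lies on the limit, with arrays at -0.99, -0.98 and -1.03, so its call was lost with median centring (-0.98), without replicate 3 (-0.99) and with a background correction of mean signals as given (-0.68, adjusted p = 0.129). Anxa7 had 17963, 20033 and 19686 in iPS F65 and 18798, 21570 and 21479 in mix1. Its log2 ratio was -0.10 ± 0.03 (limma, adjusted p = 0.0134), far inside the 2-fold limit, and the second probe gave -0.23 ± 0.03. Relative to the median of all genes, Anxa7 lay at -0.35 and Anxa11 at -1.25.

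The array also held a probe of Anxa7-ps1, by its name a pseudogene of Anxa7, with signals of 142, 153 and 189 in iPS F65 and 44.1, 25.3 and 78.0 in mix1, where it was well above background on 1 of 3 arrays. Its log2 ratio was 1.85 ± 0.68 (limma, adjusted p = 0.0086), the opposite sign to Anxa7, with arrays at 1.68, 2.60 and 1.28. It was singled out after its values had been seen.

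Anxa3 encodes annexin A3, abundant in neutrophils and involved in granule fusion, and Anxa8 encodes annexin A8, described mostly in epithelia. The brightest probe of Anxa3 had 3310, 3938 and 3972 in iPS F65 and 3848, 4522 and 4541 in mix1, a log2 ratio of -0.20 ± 0.01 (limma, adjusted p = 0.000732). Its other probes gave -0.24 ± 0.01 and 0.08 ± 0.04, so the sign of this small difference varied with the probe. The probe at 0.08, with signals of 1027, 1250 and 1180 in iPS F65 and 937, 1212 and 1119 in mix1, was the only annexin probe tested that lay above 0. Anxa8 was not tested. It gave 16.6, 15.2 and 15.5 in iPS F65, not well above background on any array, and 74.0, 92.8 and 91.2 in mix1, well above background on 2 of 3 arrays. Against the dimmest signals above background it was at least 1.30-fold lower in iPS F65.

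Of the 15 annexin probes tested, 10 were lower by at least 2-fold. All of these are probes of the genes called lower, so they add no gene to that count. The dimmer Anxa6 probe among them passed the filter through mix1 alone. The share over all 25801 probes tested was not computed. Among the 6 genes with several probes, the probes of 1 gene differed by 1.09-fold (Anxa7) to 1.96-fold (Anxa1). No annexin had probes on both sides of the 2-fold limit.

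**Figure D3:**
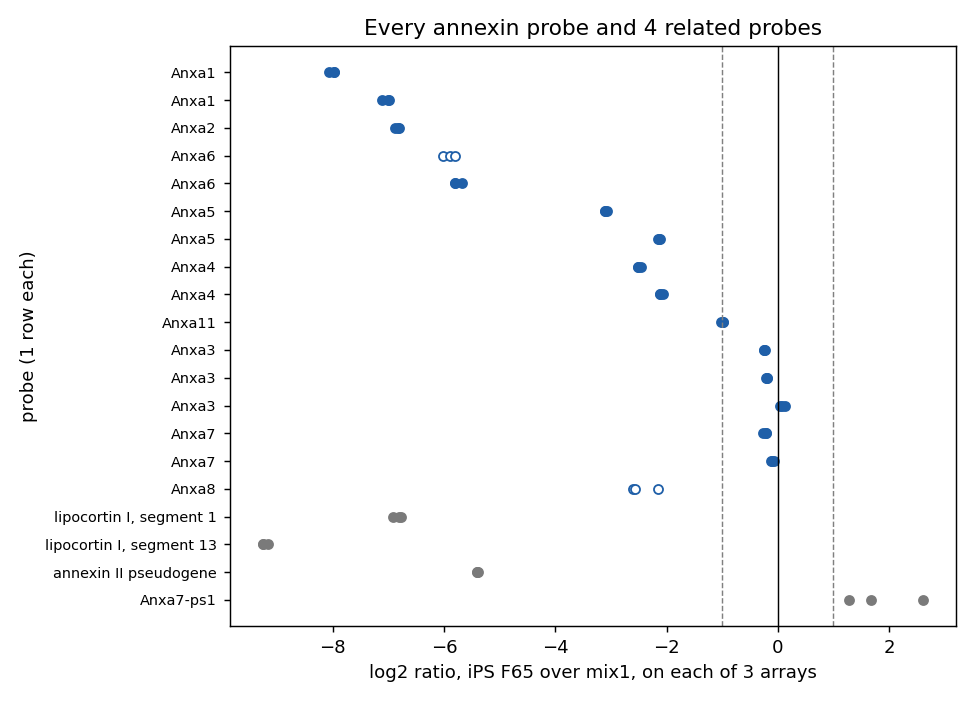
Each row is 1 probe and each point its log2 ratio of iPS F65 over mix1 on 1 of 3 arrays, with annexin probes in blue and 4 related probes under other names in grey. Open points mark probes not well above background in a channel on any array. Probes of 1 gene lie close together, and both lipocortin I probes fall on the side of Anxa1.

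The promoters of the 2 genes with the lowest ratios are shown, Anxa1 and Anxa2. They come from RefSeq in the build GRCr8 and span 250 bases before to 50 after the start given there, and 8 of the 9 genes matched. Capitals mark TATAAA and TGAGTCA, the consensus letters of the TATA box and of AP-1, searched on both strands. TATAAA was found in the windows of Anxa1 and Anxa2 and in none of the other 6, against 14.2% of all 33469 promoters. TGAGTCA was found in that of Anxa2 alone, against 4.63% of all promoters. GGGCGG, the core of a GC box, also searched on both strands, was in 6 of the 8 windows, all but those of Anxa1 and Anxa8, against 33.1% of all promoters. The windows of Anxa1 and Anxa8 held 3 CpG dinucleotides each and those of the others between 12 and 27, with a median of 7 over all promoters. These matches describe the letters only.
Anxa1, chr1:227303683-227303982, minus strand: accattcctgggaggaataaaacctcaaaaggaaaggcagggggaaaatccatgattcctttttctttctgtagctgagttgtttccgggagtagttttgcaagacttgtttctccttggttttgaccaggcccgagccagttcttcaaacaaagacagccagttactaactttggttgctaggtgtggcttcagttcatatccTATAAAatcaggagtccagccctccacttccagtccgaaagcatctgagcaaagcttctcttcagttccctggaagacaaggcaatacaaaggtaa
Anxa2, chr8:78986002-78986301, plus strand: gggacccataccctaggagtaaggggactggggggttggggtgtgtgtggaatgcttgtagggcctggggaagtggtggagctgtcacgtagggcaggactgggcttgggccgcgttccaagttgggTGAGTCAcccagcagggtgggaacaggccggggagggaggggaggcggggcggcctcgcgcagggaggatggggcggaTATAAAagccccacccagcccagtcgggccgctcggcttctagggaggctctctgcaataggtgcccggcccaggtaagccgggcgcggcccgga

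Other annexin genes gave no usable value. Anxa13 was well above background in iPS F65 on 1 of 3 arrays and in mix1 on 2, Anxa10 on none in either channel, and no probe carried the name Anxa9.

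Among 12 S100 and other EF-hand proteins, several of them known annexin partners, 9 were tested, with a median of -0.99. Of these, 4 were lower and 1 higher, beside 24.5% lower and 30.9% higher over all genes tested. S100a10, the partner of annexin A2, had 20895, 24048 and 25203 in iPS F65 and 230169, 267868 and 273090 in mix1, a log2 ratio of -3.46 ± 0.02 (limma, adjusted p = 5.51e-06). The 11-fold difference of S100a10 was smaller than the 115-fold difference of Anxa2 on every array. S100a4 and S100a6, which encode small calcium-binding proteins, were lower at -8.52 ± 0.08 and -8.19 ± 0.04, and S100a1 at -3.11 ± 0.13 (limma, largest adjusted p of these = 2.5e-05, for S100a1). Pdcd6 had a log2 ratio of -0.95 ± 0.01, just inside the 2-fold limit, and was called lower, at -1.13, when mean signals were normalised by loess with uneven backgrounds replaced. Gca, which encodes grancalcin, was at least 2.55-fold higher in iPS F65. It was not well above background in mix1, so it passed the filter through iPS F65 alone. Its call was lost in both versions based on mean signals, in 1 of which S100a1 lost its call too (-1.47). No probe carried the names S100a11 or Sri, the gene of sorcin.

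Of 14 listed receptors, proteases and lipid enzymes tied to annexins, 9 were tested, with a median of -5.35, or -4.04 with genes at background set to their bounds. Of these, 7 passed as lower and none as higher, beside 24.5% lower and 30.9% higher over all genes tested. Among the 9, 4 were not well above background in iPS F65 on any array and passed the filter through mix1 alone. Plat and Plau, which encode the tissue and urokinase plasminogen activators, were at least 40.5-fold and at least 17.9-fold lower, and the lipopolysaccharide receptor gene Tlr4 at least 42.4-fold lower. None of these was well above background in iPS F65, so they passed the filter through mix1 alone and their calls rest on iPS F65 signals near background. Plaur, the receptor of urokinase, was lower at -5.35 ± 0.11, with signals well above background in iPS F65 on 2 of 3 arrays, and Plgrkt, a plasminogen receptor, at -1.44 ± 0.03. Of 20 membrane repair genes, 17 were tested, 3 of them not well above background in iPS F65 on any array. With the same shares over all genes beside them, 11 were lower and none higher, at a median of -2.94, or -2.48 with bounds. The genes called lower included Cav1, which encodes the coat protein of caveolae, at -7.67 ± 0.02 (limma, adjusted p = 5.38e-06), or -6.17 with the mean of its probes. Myof (myoferlin) was at least 46.8-fold lower and Ehd2 at least 35.7-fold lower. These 2 genes were not well above background in iPS F65 and passed the filter through mix1 alone. Ahnak, in both lists, encodes a giant scaffold that binds the complex of annexin A2 with S100A10 and lay at -4.04 ± 0.04, while the calpain gene Capn2 lay at -2.94 ± 0.06, Ehd4 at -2.25 ± 0.03 and the ESCRT gene Chmp4b at -1.28 ± 0.02, all called lower. The calls of Plat, Plau, Plaur, Tlr4, Myof and Ehd2 were lost with mean signals and backgrounds as given, where 2 receptor, protease and lipid genes and 7 repair genes were lower. The same numbers, 2 and 7, were lower when probes had to be well above background in both channels, but among fewer genes tested. Genes dim in iPS F65, such as Plat and Ehd2, then left the test instead of losing a call.

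A list of other membrane-binding proteins, most of them calcium-dependent like copines and synaptotagmins, had 13 tested of 29 listed, with a median of -0.45 with or without bounds. Of these, 2 were higher, 5 lower and 6 neither, beside 30.9% higher and 24.5% lower over all genes tested. Mfge8, whose product binds phosphatidylserine without calcium, was lower at -3.87 ± 0.01, Esyt1 at -1.52 ± 0.01, the protein kinase C gene Prkca at -1.04 ± 0.05, and Syt12 by at least 2.26-fold. Syt9 was at least 4.66-fold higher, and the copine gene Cpne3 higher at 1.07 ± 0.06. Apart from Syt12 and Syt9, the largest adjusted p of these was 6.67e-05, for Cpne3 (limma). Syt12 was not well above background in iPS F65 and Syt9 not in mix1, so each passed the filter through the other channel alone. Cpne3 fell under the 2-fold limit, at 0.55, with both versions based on mean signals, and Syt9, Syt12 and Prkca lost their calls with backgrounds as given.

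**Figure D4:**
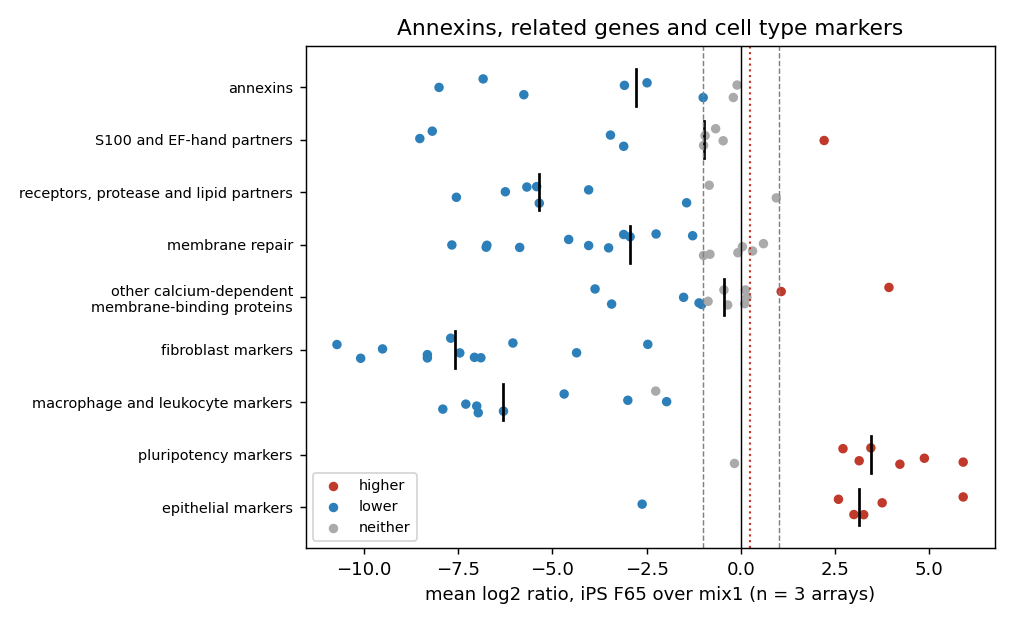
Each point is 1 gene, placed by its mean log2 ratio of iPS F65 over mix1 over 3 arrays (horizontal axis) and coloured by call, in rows for the annexins, 4 lists of related genes and 4 lists of cell type markers. Black bars are list medians and the dotted line is the median of all genes tested. The annexin median of -2.79 lies close to that of membrane repair (-2.94) and nearer to 0 than those of fibroblast (-7.58) and macrophage markers (-6.30).

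Markers of the adult cells moved in the same direction as the annexins. All 12 fibroblast markers were lower (10 when probes had to be above background in both channels), beside 24.5% of all genes tested. Here and below, counts with that filter are among fewer genes tested. Genes dim in 1 channel could then leave the test instead of losing a call. Over all genes, 17235 were then tested, with 3231 lower and 4982 higher. The summed signal of the 12 fibroblast markers was 20862 to 26899 in iPS F65 and 2080463 to 2671272 in mix1. Postn and Thy1 were not well above background in iPS F65. Col3a1, which encodes a fibrillar collagen, lay at -10.09 ± 0.05 and Col1a1 at -6.90 ± 0.13, or -8.68 with the mean of the Col1a1 probes. Of 10 macrophage and leukocyte markers listed, 9 were tested, all but Fcer1g. Of these, 8 were lower (5 when probes had to be above background in both channels), beside 24.5% of all genes tested. The summed signal of the 9 was 3159 to 3986 in iPS F65 and 225951 to 264270 in mix1. Aif1 and Itgam were not well above background in iPS F65, Lyz2 lay at -7.30 ± 0.05 and Ptprc at -2.26 ± 1.64 without passing the test (limma, adjusted p = 0.0556). Ptprc was well above background in iPS F65 on 1 array, that of replicate 2, and was called lower without that replicate (-3.38), with median centring (-2.24), with the mean of its probes (-2.82) and with normexp, uneven backgrounds replaced and loess (-1.15). The part of these cell types, and of the mouse feeder cells, in the annexin ratios was not tested. Of 11 pluripotency markers listed, 7 were tested, while Nanog, Utf1, Zfp42 and Esrrb were not. Of the 7, 6 were higher, Sox2 among them at 3.14 ± 0.40, and none lower (4 higher when probes had to be above background in both channels). Over all genes tested, 30.9% were higher and 24.5% lower. The summed signal of the 7 was 28102 to 32471 in iPS F65 and 2383 to 2510 in mix1. Epcam and Pou5f1 were not well above background in mix1, and Lin28a passed in neither direction. Of 7 epithelial markers listed, 6 were tested, all but Cldn6. Of these, 5 were higher and 1, Krt8, lower, beside the same shares over all genes tested. When probes had to be above background in both channels, 2 were higher and none lower, again among fewer genes tested. The summed signal of the 6 was 4995 to 5723 in iPS F65 and 701 to 865 in mix1. Cdh1, Epcam and Krt19 were not well above background in mix1, and no epithelial marker passed in either direction with mean signals and backgrounds as given. Krt8 was well above background in iPS F65 on 1 of 3 arrays, with signals of 63.4, 37.8 and 87.5, against 332, 355 and 411 in mix1. Lin28a and Krt8 were picked out after their values had been seen. The cytoskeletal gene Actb was itself lower, at -3.87 ± 0.06, while the glycolytic gene Gapdh lay at -0.73 ± 0.02, inside the limit, and was called lower in both versions based on mean signals (-1.12 and -1.02).

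The balance of calls over all genes varied with the processing, while no annexin tested changed sign. With processed signals 55.8% of called genes were higher, against 41.1% when mean signals were background-corrected by normexp, with uneven backgrounds replaced, and normalised by loess. The same steps with backgrounds as given left 53.1% higher, and median centring of the processed signals 56.4%. The median over all genes was 0.25 with processed signals, -0.08 with normexp, uneven backgrounds replaced and loess, and 0.03 with backgrounds as given. Relative to the first and second of these medians, Anxa1 lay at -8.26 and -8.12, Anxa3 at -0.45 and -0.57, and Anxa7 at -0.35 and -0.30.

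**Figure D5:**
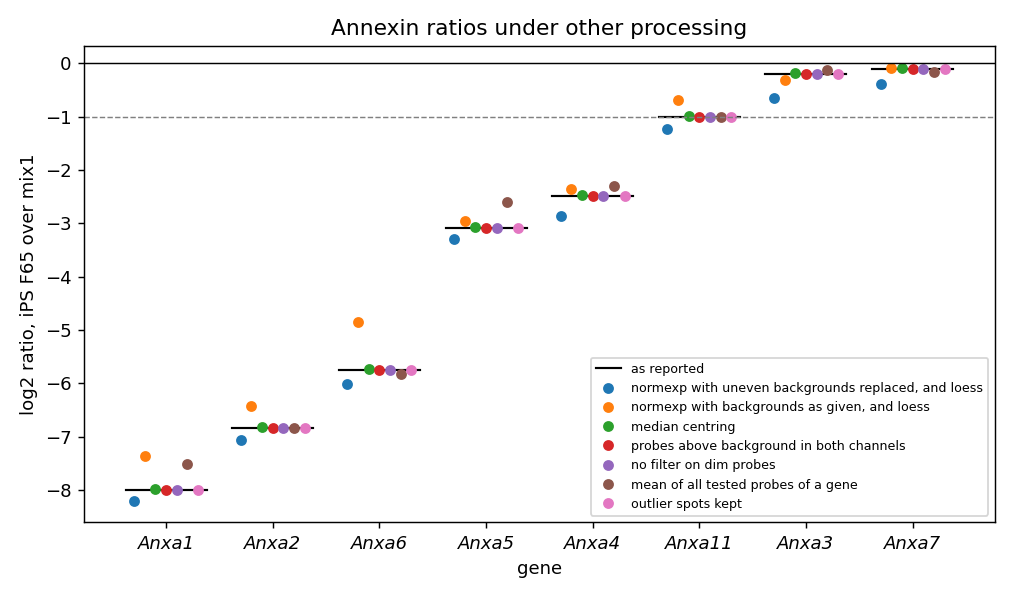
For each annexin tested, the black bar is the reported log2 ratio of iPS F65 over mix1 and the coloured points are the ratios under 7 other ways of processing. The order of the genes from Anxa1 to Anxa11 is the same in each, Anxa3 and Anxa7 trade places with the mean of a gene's probes, and points on both sides of the dashed 2-fold limit occur only at Anxa11.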

How the data were processed

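Two-colour array files of 3 iPS F65 samples against mix1 were used. Per the file headers, the deposited intensity values come from version 9.5.3.1 of Agilent Feature Extraction, which left mean signals and local backgrounds unnormalized and made processed signals by background subtraction and linear and LOWESS dye normalization. The series matrix, whose deposited log2 values state no direction, matched log2 of green over red processed signals for 41012 probes (largest difference 3.1e-06), which gives the direction as iPS F65 over mix1. Their column medians were 0.00, -0.01 and -0.06.

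Controls and flagged outlier spots (204 to 213 an array) were dropped, no gene spot was saturated, and repeated spots were averaged. Probes were tested if well above background on all 3 arrays in either channel (25801 probes), and a gene was represented by its brightest tested probe. Probes were named through RefSeq genes of GRCr8 by accession (10735), gene number (1222), symbol (5566) or unique older name (3729), and 19760 kept the file's name. Ratios were tested against 0 with limma 3.58.1 (lmFit, eBayes, R 4.3.3), checked on simulated data. Mix1 counts as 1 control sample. For bounds, log2 levels were scaled per channel by Aquantile, and a dim channel took on each array the lowest level found above background, or its own level where that was higher, before means were compared. Named genes are all annexins, in each related list the 3 called genes with the largest and the 3 with the smallest ratios, and 12 fixed genes. Members and lists were chosen with earlier results of these data known. Slide and scan were shared by all arrays.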

Additional observations from a re-analysis of the deposited data

How the results depend on the processing

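Each result was recomputed under 10 other settings. The annexins called lower numbered 5 to 7 and those called higher 0 under every one, and Anxa1, Anxa2, Anxa4, Anxa5 and Anxa6 kept their call and direction throughout. The median of the annexins was -3.08 with normexp, uneven backgrounds replaced and loess, -2.65 with backgrounds as given, -2.49 with no filter on dim probes and -2.46 with the mean of a gene's probes. Leaving out 1 replicate gave -2.81 to -2.58, the last value being that without replicate 1. The medians without replicate 1 and with no filter on dim probes both include Anxa8, which then entered the test and was called lower. Over all genes, reported as 6723 higher and 5331 lower, normexp and loess gave 3976 higher with uneven backgrounds replaced. With backgrounds as given they gave 2354 higher and 2082 lower, and probes above background in both channels gave 3231 lower among fewer genes tested. Apart from that filter, the causes were not tested. Among the 39 named genes with a test, 17 of 380 recomputed values lost a call, 7 gained one and 0 turned sign. No paired analysis was possible because each array holds an iPS F65 sample against the same mix1, with no second group to pair. Precision is limited by 3 arrays, and Anxa8 by a signal near background.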
